A study of Oryza sativa Japonica Group with 24 samples.

Results

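Heat shock proteins are molecular chaperones, and heat shock factors are the transcription factors named for switching their genes on. The 79 rice genes described here were taken from the 57668 features of the deposited table by their annotation, as those whose description names a heat shock protein, a heat shock factor or Hsp90, or whose transcription factor family is that of the heat shock factors. The rule itself used no measured value, though it was set with earlier results of these data known. They comprised 24 heat shock factors, 1 heat shock factor binding protein, 33 Hsp70 genes, 9 Hsp90 genes, 3 activators of the Hsp90 ATPase and 9 proteins described by the cysteine-rich domain of DnaJ. The descriptions used in the choice name no small heat shock protein, so that family is not among the 79.

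Chaperones of the Hsp70 family bind unfolded stretches of other proteins and release them in a cycle driven by ATP, with J-domain proteins as their partners. Hsp90 chaperones act later, on nearly folded clients such as receptors and kinases, and Aha1-type activators speed their ATPase. Plant heat shock factors fall into class A, which carry activator motifs, class B, which lack them and often act as repressors, and class C, which is less well known. Many of these genes are active without heat, in growing tissue and under other stresses.

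The RNA came from roots and shoots of japonica rice (Oryza sativa) in 8 groups of 3 libraries. Seedlings overexpressing bHLH6, a basic helix-loop-helix factor, are called bHLH6-OV. Seedlings with a T-DNA in the SPX4 gene are called spx4. Both were grown at 200 µM phosphate (Pi), called high Pi. Wild type (WT) was grown at 10 µM Pi, called low Pi, and at 200 µM Pi as the control of every comparison. Treatment began with seedlings 7 days old and ran for 2 weeks, and 3 seedlings were pooled for each library. The labels do not give the promoter of the bHLH6 transgene, nor whether the line or the mutant is a single plant line. SPX4 is an SPX domain protein that senses Pi status, and bHLH6 is a transcription factor linked to jasmonate responses.

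Assigned reads per library, in units of 1e6, ran between 20.97 and 29.65, recovered from the table as described under the processing. Levels are FPKM, that is reads per kilobase of gene scaled for each library, and a change is a difference of log2(FPKM + 1) with its standard error (SE). A call is an adjusted p under 0.05 in limma over all genes tested in that tissue. The bHLH6 gene stood at 115 to 164 FPKM in bHLH6-OV roots and 3.24 to 5.66 FPKM in WT roots at high Pi. The SPX4 gene stood at 5.21 to 6.73 FPKM in spx4 roots and 11.1 to 11.4 FPKM in WT roots, so transcript was lower but present. The tissue labels matched their markers, since the root gene RCc3 had 1202 to 2437 FPKM in all root libraries and 0 to 0.552 FPKM in all shoot libraries. Of the 79 genes, 54 passed the filter on low values in roots (a mean of at least 1 FPKM over 12 libraries) and 52 in shoots. A further 22 passed in neither tissue, among them 15 Hsp70 genes, 12 of which had fewer than 100 reads over all 24 libraries. RefSeq paired 26 of the 79 with a symbol, and the others go by their locus names. Plant Hsp70 and Hsp90 families are known for closely similar copies, between which reads may be divided, so values of their single members carry that uncertainty.

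The set was a small part of the transcriptome, with 0.390% of summed FPKM in roots and 0.284% in shoots. The most abundant member was the Hsp70 gene LOC_Os11g47760, which averaged 642 FPKM in roots and 235 FPKM in shoots. BIP1, the Hsp70 of the endoplasmic reticulum lumen, averaged 243 FPKM in roots and 142 FPKM in shoots, and the Hsp70 gene LOC_Os03g16860 averaged 189 FPKM in roots and 161 FPKM in shoots. Among Hsp90 genes LOC_Os06g50300 led with 164 FPKM in roots and 115 FPKM in shoots, ahead of LOC_Os09g30412 with 141 FPKM in roots and 73.9 FPKM in shoots. HSP81-1, a cytosolic Hsp90, averaged 116 FPKM in roots and 36.1 FPKM in shoots. The Hsp90 activators averaged between 9.48 and 29.1 FPKM in either tissue, and LOC_Os09g20830, the heat shock factor binding protein, 36.0 FPKM in roots and 24.2 FPKM in shoots. Of the factors HSFA2D, of class A, averaged 2.04 FPKM in roots and 95.25 FPKM in shoots, HSFB2C 26.0 FPKM in roots and 24.45 FPKM in shoots, and HSFB1 25.03 FPKM in roots and 15.6 FPKM in shoots.

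In WT at high Pi, roots and shoots held different members of the set. Root and shoot libraries were treated as independent in this comparison. Of 56 members tested over all 24 libraries, 26 were higher in roots than in shoots and 23 lower, beside 45.3% of all genes higher and 38.9% lower. The members' shares were 46.4% and 41.1%, close to those of all genes. All 9 DnaJ cysteine-rich domain genes were lower in roots, with a median log2 difference of -3.19, and all 3 Hsp90 activators were higher, with a median of 1.34. Hsp70 genes divided into 9 higher and 5 lower of 18, Hsp90 genes into 4 higher and 2 lower of 7, and factors into 9 higher and 7 lower of 18. Scaling the values as TPM moved the median of all genes by 0.478 in favour of roots. It gave 33 of 59 members higher and 16 lower, beside 14246 and 6455 of 24744 genes. The signs of HSFA4B and HSFB2A turned under that scaling.

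Log2 differences of the factors ran from -4.88 to 3.82. HSFC2A, of class C, stood at 19.45, 14.04 and 16.12 FPKM in WT roots, against 0.166, 0.221 and 0.311 FPKM in WT shoots. HSFB4C had 238 to 268 reads in each WT root library and 0 reads in each WT shoot library, and its relative HSFB4B averaged 4.16 ± 0.690 FPKM in WT roots and 0.0707 ± 0.0502 FPKM in WT shoots (SD, n = 3 each). HSFB4 of Arabidopsis is known for a role in root patterning. In the other direction HSFA2D averaged 1.99 ± 0.368 FPKM in WT roots and 87.6 ± 14.1 FPKM in WT shoots, and HSFA3 1.47 ± 0.683 FPKM in WT roots and 21.3 ± 1.83 FPKM in WT shoots. Among the chaperones LOC_Os09g29840, an Hsp90 gene, averaged 9.40 ± 0.435 FPKM in WT roots and 131 ± 4.62 FPKM in WT shoots, while HSP81-1 averaged 133 ± 4.14 FPKM in WT roots and 36.1 ± 1.47 FPKM in WT shoots. Single Hsp90 genes therefore stood in opposite order between the tissues.

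**Figure D1:**
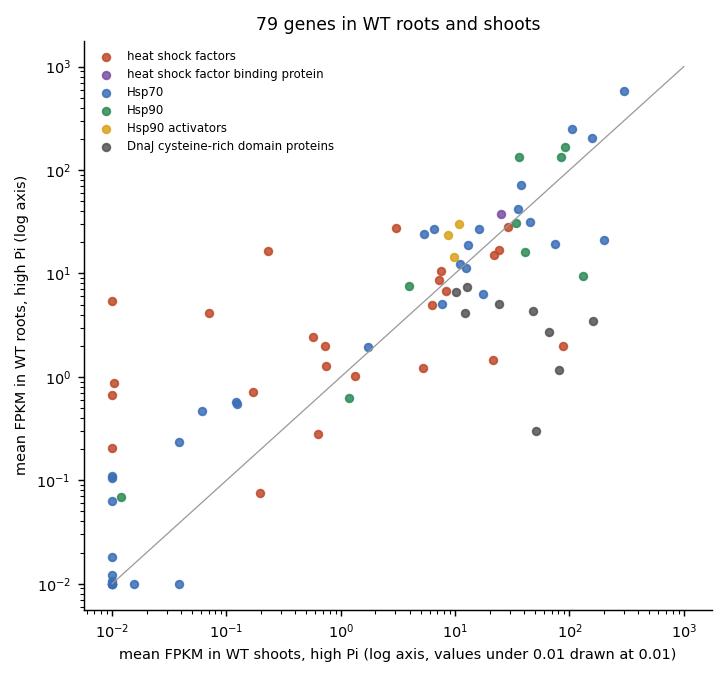
Mean FPKM of the 79 genes in WT roots at high Pi (vertical, log axis) against WT shoots at high Pi (horizontal, log axis), 1 point per gene coloured by role; values under 0.01 are drawn at 0.01 and the line marks equal levels. The 9 DnaJ cysteine-rich domain genes lie below the line, and heat shock factors lie far off it on both sides.

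Each tissue was then compared between a line or treatment and WT at high Pi. Over the 6 comparisons 45 of the 57 members tested in either tissue were called at least once, which is 78.9%, beside 68.3% of all genes tested. In roots it was 20 of 54 (37%, beside 41.8% of all genes) and in shoots 37 of 52 (71.2%, beside 61.4%). The 3 comparisons of a tissue share their WT libraries, so they are not independent of each other. Per the labels each library of a tissue is a separate pool of seedlings.

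**Figure D2:**
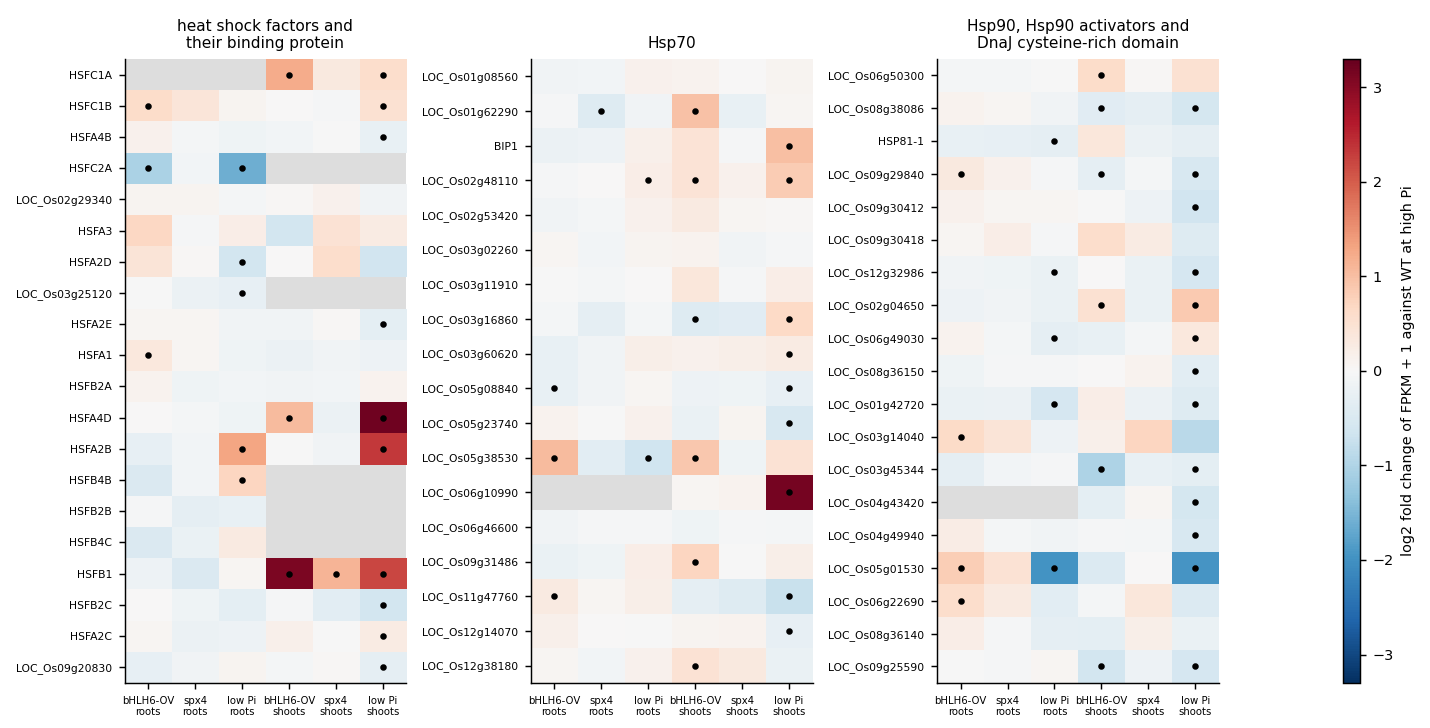
Log2 fold change of FPKM + 1 against WT at high Pi (colour) for each tested member (rows, by role) in 6 comparisons (columns); black dots mark limma calls at an adjusted p under 0.05 and grey cells were under the filter. The low Pi shoot column holds 32 dots, and HSFB1 is called in all 3 shoot columns.

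Low Pi gave the most calls, in shoots. There 13 of 52 members rose and 19 fell in WT at low Pi relative to WT at high Pi, which is 25% and 36.5% of the members beside 22.2% of all genes tested rising and 26% falling. The median change was -0.195 for the members and -0.052 for all genes. Of the rising members LOC_Os06g10990 and HSFA2B passed the filter only through their low Pi libraries. Their entry into the test thus depended on their rise. Without the filter 13 of 73 members rose and 18 fell, beside 5122 and 5139 of 36172 genes. Under TPM scaling 13 of 55 members rose and 12 fell, beside 4999 and 3501 of 20892 genes. Factors rose more often than they fell (6 and 3 of 14), Hsp90 genes and DnaJ cysteine-rich domain genes had falls only (4 of 7 and 6 of 9), and Hsp70 genes went both ways (5 up and 4 down of 18).

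HSFA4D, a class A factor also known as SPL7 from the spotted leaf mutant of rice, stood at 71.8, 46.4 and 51.8 FPKM in low Pi shoots, against 5.63, 5.78 and 4.24 FPKM in high Pi shoots. Its lowest low Pi library was far above its highest high Pi library, and the change was 3.20 ± 0.191 on the log2 scale (SE, limma adjusted p = 3.5e-07), a 10.8-fold difference of the means. The gene lies on chromosome 5 from 26344414 to 26346889 on the plus strand, in the coordinates of the deposited table, whose build is not given in the sources used here. HSFB1, a class B factor on chromosome 9 from 17221426 to 17228961, stood at 16.57, 20.15 and 16.23 FPKM in low Pi shoots, against 3.16, 2.82 and 3.16 FPKM in high Pi shoots. That made a change of 2.20 ± 0.154 (adjusted p = 1.0e-06). HSFA2B, of the A2 subclass whose Arabidopsis member sustains acquired thermotolerance, stood at 9.05, 6.29 and 8.20 FPKM in low Pi shoots, against 0.879, 0.575 and 0.752 FPKM in high Pi shoots. Its change was 2.34 ± 0.162 (adjusted p = 9.7e-07). No low Pi value of these 3 factors overlapped with high Pi. HSFA2C, HSFC1B and HSFC1A also rose, by 0.27 to 0.59 on the log2 scale, with HSFC1A losing its call whichever of the 6 libraries was left out and HSFC1B without WT high Pi replicate 1. HSFB2C, a class B factor, fell to 18.43, 17.88 and 19.25 FPKM in low Pi shoots, against 28.4, 28.0 and 30.1 FPKM in high Pi shoots (change -0.61 ± 0.0975, adjusted p = 0.00041). HSFA2E and HSFA4B fell by 0.31 and 0.25, and neither call held under TPM scaling. LOC_Os09g20830, the binding protein that in Arabidopsis and animals restrains heat shock factors, fell to 20.6 ± 1.01 FPKM in low Pi shoots, against 25.4 ± 0.938 FPKM in high Pi shoots, a call that also ended under TPM scaling.

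**Figure D3:**
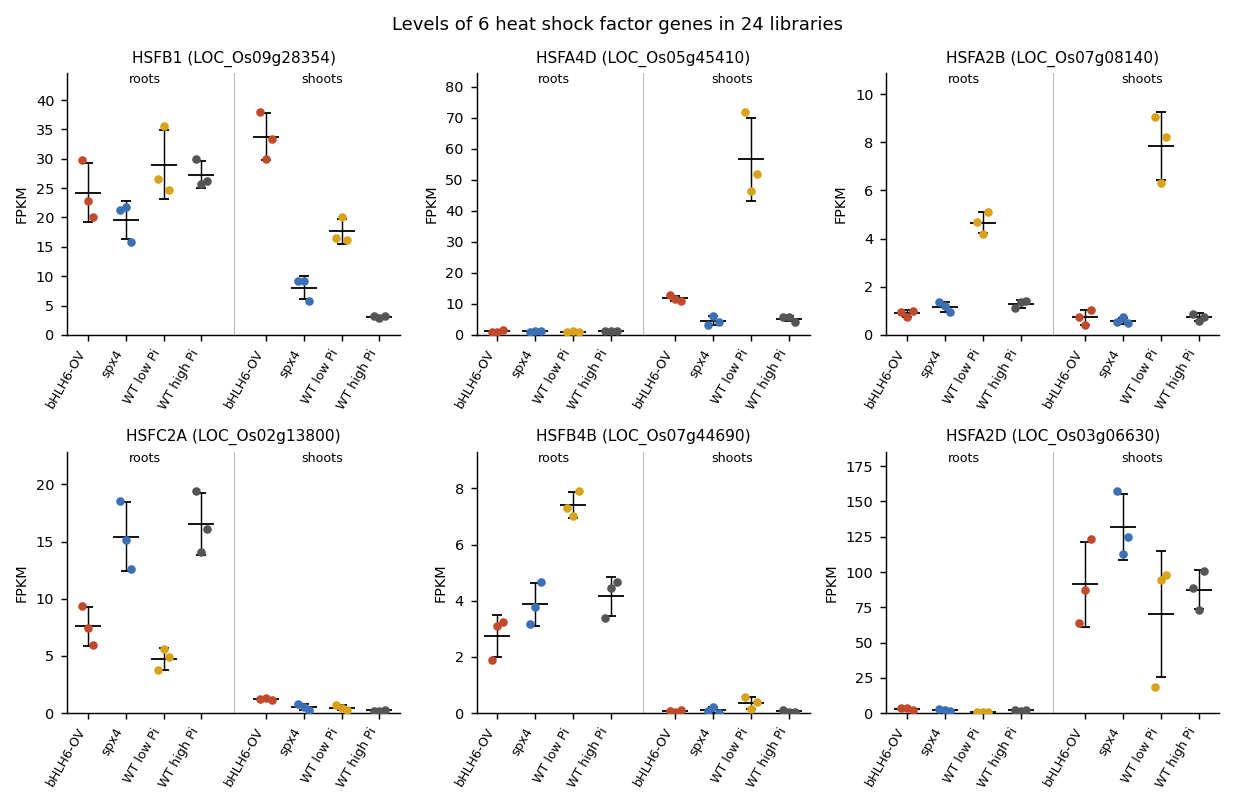
FPKM of 6 heat shock factor genes in every library, by line or Pi supply, with roots left and shoots right in each panel; points are libraries and bars are mean ± SD of 3. HSFB1, HSFA4D and HSFA2B are higher in low Pi shoots than in WT shoots at high Pi, HSFC2A is lower in bHLH6-OV and low Pi roots, and 1 low Pi shoot library is far below the others for HSFA2D.

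Among Hsp70 genes the rise in low Pi shoots was steepest for LOC_Os06g10990, on chromosome 6 from 5745188 to 5747209. It had 516, 224 and 236 reads in the low Pi shoot libraries, against 2, 3 and 2 reads in the high Pi shoot libraries. In FPKM that was 12.6, 6.62 and 7.10 in low Pi shoots, against 0.0478, 0.0820 and 0.0537 in high Pi shoots. The change was 3.15 ± 0.198 (adjusted p = 4.6e-07), and it was 5.73 with a pseudocount of 0.1, since the high Pi level lies near 0. BIP1 stood at 282, 192 and 170 FPKM in low Pi shoots, against 108, 106 and 99.7 FPKM in high Pi shoots (change 1.00 ± 0.222, adjusted p = 0.0035). LOC_Os03g16860 stood at 230, 258 and 258 FPKM in low Pi shoots, against 176, 154 and 142 FPKM in high Pi shoots (change 0.66 ± 0.103, adjusted p = 0.00036). LOC_Os02g48110 rose by 0.82 ± 0.115 and LOC_Os03g60620 by 0.28 ± 0.0892, the second losing its call without WT high Pi replicate 1 or 2 or low Pi replicate 2. The most abundant member moved the other way. LOC_Os11g47760 fell to 228, 166 and 148 FPKM in low Pi shoots, against 268, 351 and 277 FPKM in high Pi shoots (change -0.74 ± 0.178, adjusted p = 0.0055). LOC_Os05g23740 fell by 0.53 ± 0.107, and LOC_Os12g14070 and LOC_Os05g08840 each by 0.28, calls that ended under TPM scaling for the last pair.

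Of 7 Hsp90 genes tested 4 fell in low Pi shoots and 3 had no call, beside 26% of all genes tested falling. LOC_Os09g30412 stood at 63.0, 52.0 and 48.0 FPKM in low Pi shoots, against 85.6, 84.0 and 81.2 FPKM in high Pi shoots (change -0.62 ± 0.109, adjusted p = 0.00078). LOC_Os08g38086 stood at 30.9, 23.9 and 26.0 FPKM in low Pi shoots, against 39.9, 41.7 and 41.0 FPKM in high Pi shoots (change -0.59 ± 0.125, adjusted p = 0.0025). LOC_Os12g32986 and LOC_Os09g29840 fell by 0.55 and 0.52. The Hsp90 gene of highest mean level over the 24 libraries had the opposite sign, without a call. LOC_Os06g50300 stood at 159, 125 and 109 FPKM in low Pi shoots, against 89.0, 95.0 and 90.0 FPKM in high Pi shoots, with no overlap (change 0.50 ± 0.193, adjusted p = 0.051, and 0.017 to 0.15 under the alternatives). HSP81-1 and LOC_Os09g30418 were not called either. Of the activators LOC_Os02g04650 rose to 13.99, 19.83 and 16.44 FPKM in low Pi shoots, against 9.51, 8.79 and 7.80 FPKM in high Pi shoots (change 0.86 ± 0.166, adjusted p = 0.0014). LOC_Os06g49030 rose by 0.36 ± 0.0933, and LOC_Os08g36150 fell by 0.34 ± 0.0801, a call that ended under TPM scaling. The 3 activators thus did not move as a group.

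The DnaJ cysteine-rich domain gene LOC_Os05g01530, on chromosome 5 from 312654 to 313735, had the largest fall of the set in low Pi shoots. It stood at 22.34, 54.25 and 56.66 FPKM in low Pi shoots, against 154, 155 and 176 FPKM in high Pi shoots (change -1.95 ± 0.287, adjusted p = 0.00023). The lowest of these low Pi values came from low Pi replicate 1, and the change was -1.52 without that library. LOC_Os09g25590, LOC_Os04g49940, LOC_Os01g42720, LOC_Os03g45344 and LOC_Os04g43420 fell by 0.32 to 0.57. The calls of LOC_Os01g42720 and LOC_Os03g45344 ended under TPM scaling. That of LOC_Os04g43420 ended without WT high Pi replicate 1 or 3, and its change was -0.30 without low Pi replicate 1. Photosynthesis genes were lower in sum as well, mainly in that library. A list of 42 such genes summed to 10209, 27446 and 30158 FPKM in low Pi shoots, against 32425, 31285 and 39342 FPKM in high Pi shoots. In low Pi replicates 2 and 3 the sums of 27446 and 30158 FPKM lay under the lowest high Pi sum of 31285 FPKM. LOC_Os05g01530 stood at 54.25 and 56.66 FPKM in these libraries. Low Pi replicate 1 was also the lowest low Pi library for LOC_Os04g43420 and LOC_Os09g25590. The same held for LOC_Os03g14040, LOC_Os06g22690 and LOC_Os08g36140, which were not called. It was not the lowest for LOC_Os04g49940, LOC_Os01g42720 or LOC_Os03g45344. The part of photosynthesis genes in the fall of the DnaJ cysteine-rich domain genes was not tested. In whole shoots fewer cells of a type and less RNA per cell cannot be told apart. The counts of members called stayed at 13 rising and 19 falling when low Pi replicate 1 was left out. HSFA2D, for which no call was made, stood at 18.62 FPKM in that library and 94.56 and 97.89 FPKM in the other low Pi shoot libraries, against 88.9, 72.9 and 101 FPKM in high Pi shoots.

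**Figure D4:**
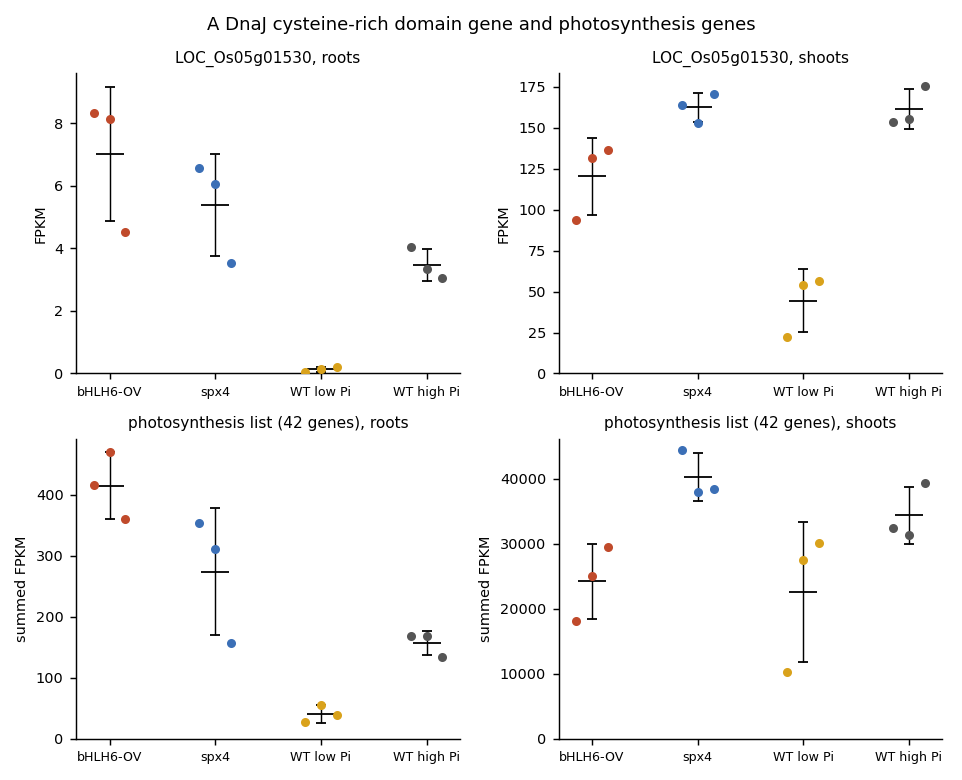
FPKM of the DnaJ cysteine-rich domain gene LOC_Os05g01530 (top) and summed FPKM of 42 photosynthesis genes (bottom) in roots (left) and shoots (right), by line or Pi supply; points are libraries and bars are mean ± SD of 3. Both are lowest in WT at low Pi in roots, and low Pi shoot replicate 1 is the lowest shoot library in both.

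In bHLH6-OV shoots 10 of 52 members rose and 5 fell relative to WT, or 19.2% and 9.62% of the members beside 14% of all genes tested rising and 17.3% falling. The median change was 0.0204 for the members and -0.0481 for all genes. TPM scaling gave 19 of 55 members rising and 2 falling, beside 4623 and 1491 of 20892 genes. The median of all genes moved up by 0.201. Of 14 factors 3 rose and 0 fell. HSFB1 had its highest mean of all 8 groups here, at 38.1, 30.0 and 33.3 FPKM in bHLH6-OV shoots, against 3.16, 2.82 and 3.16 FPKM in WT shoots. The change was 3.10 ± 0.154 (adjusted p = 1.2e-07), an 11.1-fold difference of the means, and it lay between 3.01 and 3.42 under all alternatives run. HSFA4D stood at 12.7, 11.6 and 10.9 FPKM in bHLH6-OV shoots, against 5.63, 5.78 and 4.24 FPKM in WT shoots (change 1.04 ± 0.191, adjusted p = 0.0021). HSFC1A, a class C factor, reached 2.88 ± 0.800 FPKM in bHLH6-OV shoots, against 0.636 ± 0.0381 FPKM in WT shoots. HSFA2B, which rose at low Pi, averaged 0.724 FPKM in bHLH6-OV shoots and 0.736 FPKM in WT shoots.

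Of 18 Hsp70 genes 5 rose in bHLH6-OV shoots and 1 fell, beside 14% of all genes tested rising and 17.3% falling. LOC_Os01g62290, on chromosome 1 from 36039706 to 36043510, stood at 12.4, 11.6 and 10.6 FPKM in bHLH6-OV shoots, against 5.28, 5.90 and 4.98 FPKM in WT shoots (change 0.97 ± 0.173, adjusted p = 0.0018). LOC_Os05g38530, on chromosome 5 from 22599355 to 22602579, stood at 16.86, 14.12 and 14.41 FPKM in bHLH6-OV shoots, against 8.88, 7.09 and 7.15 FPKM in WT shoots (change 0.89 ± 0.190, adjusted p = 0.0049). LOC_Os09g31486 stood at 13.4, 9.52 and 11.3 FPKM in bHLH6-OV shoots, against 6.71, 6.78 and 6.12 FPKM in WT shoots (change 0.71 ± 0.138, adjusted p = 0.0029). In each the groups stood clear of each other. LOC_Os12g38180 and LOC_Os02g48110 rose by 0.47 and 0.45, the call of the first ending in 4 of the 6 omissions and that of the second without bHLH6-OV replicate 1. LOC_Os06g50300 (Hsp90) and LOC_Os02g04650 (Hsp90 activator) rose by 0.60 and 0.49, with calls that ended in 5 and 6 of the 6 omissions.

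The falls in bHLH6-OV shoots were of 2 DnaJ cysteine-rich domain genes, 1 Hsp70 gene and 2 Hsp90 genes. They numbered 3 when any 1 of the 3 WT libraries or bHLH6-OV replicate 2 was left out, where 2371 to 2515 of 19990 genes fell. Leaving out WT low Pi shoot replicate 1, which shares the fit without being compared, gave 13 rises and 11 falls of 52 members. Over all genes 3403 rose and 4382 fell of 19990 in that fit, so the members' share of falls was then close to that of all genes. LOC_Os03g45344 stood at 4.02, 4.93 and 4.57 FPKM in bHLH6-OV shoots, against 9.48, 10.2 and 10.8 FPKM in WT shoots (change -1.02 ± 0.109, adjusted p = 5.8e-05). LOC_Os09g25590 stood at 14.12, 16.45 and 16.79 FPKM in bHLH6-OV shoots, against 24, 23.13 and 25.72 FPKM in WT shoots (change -0.59 ± 0.104, adjusted p = 0.0016). Both calls held under TPM scaling, with -0.38 for the second. LOC_Os03g16860 stood at 120, 115 and 112 FPKM in bHLH6-OV shoots, against 176, 154 and 142 FPKM in WT shoots (change -0.43 ± 0.103), but the change was -0.21 under TPM scaling with an adjusted p of 0.26. The Hsp90 genes LOC_Os08g38086 and LOC_Os09g29840 fell by 0.38 and 0.30, and had changes of -0.16 and -0.07 under TPM scaling, with no call. The photosynthesis list summed to 18096, 25040 and 29451 FPKM in bHLH6-OV shoots, below the 31285 to 39342 FPKM of WT shoots, and its part in the fall of the DnaJ cysteine-rich domain genes was not tested.

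In spx4 shoots 1 of 52 members rose and 0 fell relative to WT (1.92% and 0%), beside 0.725% of all genes tested rising and 1.42% falling. An unadjusted p under 0.05 in limma was found for 7 of 52 members and 3085 of 19990 genes, which are similar shares. The single call was HSFB1, at 9.15, 9.10 and 5.77 FPKM in spx4 shoots, against 3.16, 2.82 and 3.16 FPKM in WT shoots (change 1.13 ± 0.154, adjusted p = 0.0017). The call held in every alternative run, with changes of 1.03 to 1.34. Without spx4 replicate 1 there was 1 fall as well. Without low Pi replicate 1, which shares the fit, 2 members rose and 1 fell, and over all genes 466 rose and 526 fell, against 145 and 283 with it. Over the 4 shoot groups HSFB1 therefore ran from bHLH6-OV through low Pi and spx4 down to WT at high Pi, with no overlap between neighbouring groups. The bHLH6 gene itself stood at 85.8 to 120 FPKM in bHLH6-OV shoots, 14.5 to 32.8 FPKM in spx4 shoots, 9.25 to 83.1 FPKM in low Pi shoots and 5.21 to 5.29 FPKM in WT shoots at high Pi.

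At low Pi roots gave 12 calls, against 32 in shoots. In roots 3 of 54 members rose and 9 fell relative to WT at high Pi, or 5.56% and 16.7% of the members beside 15.3% of all genes tested rising and 16.1% falling. The median change was -0.0421 for the members and 0.0145 for all genes. Falling members numbered 4 without WT high Pi replicate 1 or 3, where 2675 and 2570 of 22090 genes fell. Rising members numbered 5 without low Pi replicate 2, where 3754 of 22090 genes rose. HSFA2B rose here as well, to 4.695, 4.201 and 5.107 FPKM in low Pi roots, against 1.10, 1.35 and 1.41 FPKM in high Pi roots (change 1.31 ± 0.105, adjusted p = 5.5e-06). HSFB4B, on chromosome 7 from 26673639 to 26676932, stood at 7.30, 7.02 and 7.92 FPKM in low Pi roots, against 3.38, 4.44 and 4.67 FPKM in high Pi roots (change 0.71 ± 0.162, adjusted p = 0.0066). HSFC2A, on chromosome 2 from 7463932 to 7465506, fell to 3.74, 5.57 and 4.88 FPKM in low Pi roots, against 19.45, 14.04 and 16.12 FPKM in high Pi roots. Its change was -1.61 ± 0.182 (adjusted p = 7.4e-05), and the groups were well apart. HSFA2D and LOC_Os03g25120, a factor with no symbol here, fell by 0.60 and 0.27, and their calls ended without 4 and 6 of the 6 libraries in turn.

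The Hsp70 gene LOC_Os05g38530 stood at 2.00, 4.02 and 2.80 FPKM in low Pi roots, against 4.77, 5.41 and 4.95 FPKM in high Pi roots (change -0.65 ± 0.163, adjusted p = 0.011). LOC_Os02g48110 rose by 0.22 in low Pi roots, a call that ended under 5 other settings and without 5 of the 6 libraries in turn. HSP81-1 stood at 114, 103 and 108 FPKM in low Pi roots, against 129, 138 and 132 FPKM in high Pi roots (change -0.29 ± 0.101, adjusted p = 0.046). Leaving out any of the 6 libraries ended that call. LOC_Os12g32986 (Hsp90) fell by 0.23 with a call that ended without 5 of the 6 libraries, and by 0.14 without low Pi replicate 2. The activator LOC_Os06g49030, which rose in low Pi shoots, stood at 26.8, 21.6 and 24.6 FPKM in low Pi roots, against 30.5, 29.6 and 30.8 FPKM in high Pi roots (change -0.31 ± 0.0842, adjusted p = 0.017). That call ended without WT high Pi replicate 1 or 3. Among DnaJ cysteine-rich domain genes LOC_Os01g42720 stood at 4.83, 3.96 and 5.34 FPKM in low Pi roots, against 7.48, 6.73 and 8.01 FPKM in high Pi roots (change -0.56 ± 0.104, adjusted p = 0.0020). LOC_Os05g01530 was down to 1, 3 and 4 reads in the low Pi root libraries, against 87, 66 and 59 reads in the high Pi root libraries. Its change was -1.98 ± 0.221 (adjusted p = 6.8e-05), and -4.01 with a pseudocount of 0.1. The photosynthesis list summed to 27.6, 55.6 and 38.2 FPKM in low Pi roots, against 168, 169 and 134 FPKM in high Pi roots, and its part in these falls was not tested.

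In bHLH6-OV roots 8 of 54 members rose and 2 fell relative to WT, or 14.8% and 3.7% of the members beside 7.62% of all genes tested rising and 10.4% falling. The median change was 0.00232 for the members and -0.021 for all genes. Leaving out 1 library of the groups compared at a time gave 3 to 8 rising, where 900 to 1455 of 22090 genes rose, against 1684 with every library. The members rising were 3 without WT replicate 2, 4 without WT replicate 3 or bHLH6-OV replicate 2 and 5 without bHLH6-OV replicate 1. LOC_Os05g38530 rose in this tissue too, to 13.1, 10.7 and 10.7 FPKM in bHLH6-OV roots, against 4.77, 5.41 and 4.95 FPKM in WT roots (change 1.04 ± 0.163, adjusted p = 0.0016). HSFC2A fell to 9.38, 7.45 and 5.96 FPKM in bHLH6-OV roots, against 19.45, 14.04 and 16.12 FPKM in WT roots (change -1.04 ± 0.182, adjusted p = 0.0031). HSFA1, of the A1 subclass that leads the heat response in tomato and Arabidopsis, stood at 22.85, 20.18 and 22.02 FPKM in bHLH6-OV roots, against 16.91, 15.99 and 17.76 FPKM in WT roots. Its change was 0.34 ± 0.0781 (adjusted p = 0.012), lost without WT replicate 2. HSFC1B rose by 0.61, with a call lost in 4 of 6 omissions.

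Of 8 DnaJ cysteine-rich domain genes 3 rose in bHLH6-OV roots, beside 7.62% of all genes tested. LOC_Os05g01530 stood at 8.33, 8.14 and 4.53 FPKM in bHLH6-OV roots, against 4.04, 3.35 and 3.05 FPKM in WT roots (change 0.80 ± 0.221, adjusted p = 0.028). That call was lost with a pseudocount of 0.1, without the filter and in 4 of 6 omissions. LOC_Os06g22690 stood at 6.22, 8.55 and 6.12 FPKM in bHLH6-OV roots, against 3.95, 5.12 and 3.95 FPKM in WT roots (change 0.57 ± 0.126, adjusted p = 0.010). LOC_Os03g14040 rose by 0.62 ± 0.132. The photosynthesis list moved with them, at 416, 470 and 360 FPKM in bHLH6-OV roots, against 168, 169 and 134 FPKM in WT roots, and its part in their rise was not tested. LOC_Os09g29840 (Hsp90) and LOC_Os11g47760 (Hsp70) rose by 0.32 and 0.29, and LOC_Os05g08840 (Hsp70) fell by 0.24, each losing its call in 4 to 6 of the 6 omissions.

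In spx4 roots 0 of 54 members rose and 1 fell relative to WT (0% and 1.85%), beside 0.634% of all genes tested rising and 1.82% falling. An unadjusted p under 0.05 in limma was found for 8 of 54 members and 2910 of 22090 genes, which are similar shares. The call was the Hsp70 gene LOC_Os01g62290, at 16.7, 20.0 and 15.8 FPKM in spx4 roots, against 22.9, 24.8 and 23.7 FPKM in WT roots (change -0.43 ± 0.0962, adjusted p = 0.039). The groups did not overlap, but the call ended without the filter, in a fit of those 2 groups alone and without each of the 6 libraries in turn other than spx4 replicate 2. It also ended without bHLH6-OV replicate 2 or low Pi replicate 3, which share the fit. HSFB1 stood at 21.2, 21.7 and 15.8 FPKM in spx4 roots, against 29.92, 25.76 and 26.21 FPKM in WT roots, with an adjusted p of 0.24.

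**Figure D5:**
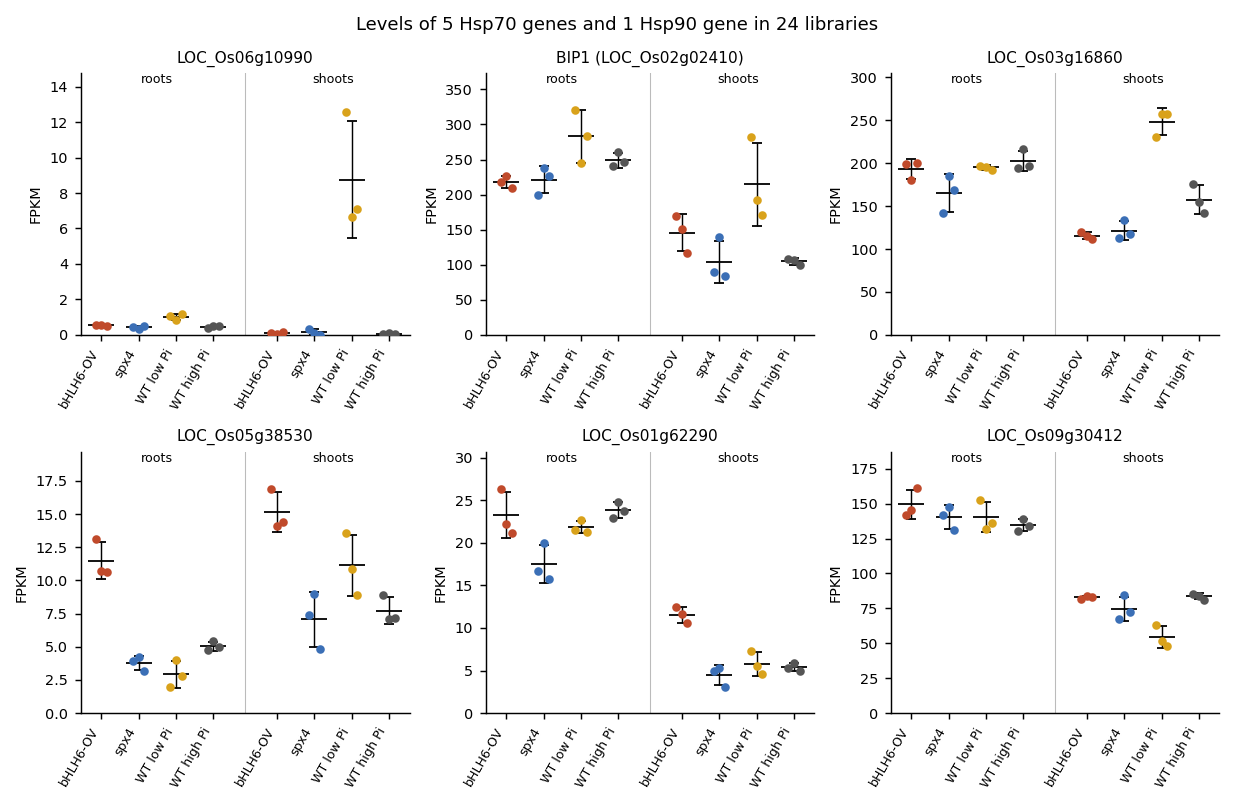
FPKM of 5 Hsp70 genes and the Hsp90 gene LOC_Os09g30412 in every library, by line or Pi supply, with roots left and shoots right in each panel; points are libraries and bars are mean ± SD of 3. LOC_Os06g10990 is highest in low Pi shoots, LOC_Os05g38530 is higher in bHLH6-OV than in WT in both tissues, and LOC_Os09g30412 is lower in low Pi shoots.

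The spx4 mutant and bHLH6-OV were also set against each other. In shoots 4 of 52 members were higher in spx4 than in bHLH6-OV and 12 lower, beside 18.3% of all genes tested higher and 13.8% lower. The members' shares were 7.69% and 23.1%. Under TPM scaling 2 of 55 members were higher and 25 lower, beside 1106 and 6536 of 20892 genes. The median of all genes then moved by -0.297. HSFB1 (change -1.97 ± 0.154, adjusted p = 5.3e-06), HSFA4D (-1.23 ± 0.191) and HSFC1A (-0.91 ± 0.216) were lower in spx4 shoots, as were the Hsp70 genes LOC_Os01g62290 (-1.22 ± 0.173), LOC_Os05g38530 (-1.03 ± 0.190) and LOC_Os09g31486 (-0.72 ± 0.138). HSFA3, a factor that acts downstream of DREB2A in Arabidopsis, was higher, at 28.0, 25.7 and 37.8 FPKM in spx4 shoots, against 14.5, 12.7 and 13.5 FPKM in bHLH6-OV shoots. Its change was 1.10 ± 0.292 (adjusted p = 0.016), and the call ended without bHLH6-OV replicate 2 or spx4 replicate 3. The other 3 members that were higher were DnaJ cysteine-rich domain genes, of which LOC_Os09g25590 and LOC_Os08g36140 lost their calls under TPM scaling. They stood beside photosynthesis sums of 37965 to 44475 FPKM in spx4 shoots and 18096 to 29451 FPKM in bHLH6-OV shoots, whose part was not tested. Without spx4 replicate 3 the members lower in spx4 shoots numbered 7, beside 2027 of 19990 genes. Without WT low Pi shoot replicate 1, which shares the fit, 9 were higher and 15 lower, beside 4852 and 3307 of 19990 genes.

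In roots 1 of 54 members was higher in spx4 than in bHLH6-OV and 3 lower (1.85% and 5.56%), beside 3.12% of all genes tested higher and 3.46% lower. HSFC2A was higher, at 18.57, 15.09 and 12.56 FPKM in spx4 roots, against 9.38, 7.45 and 5.96 FPKM in bHLH6-OV roots (change 0.93 ± 0.182, adjusted p = 0.010). LOC_Os05g38530 was lower, at 3.92, 4.24 and 3.16 FPKM in spx4 roots, against 13.1, 10.7 and 10.7 FPKM in bHLH6-OV roots (change -1.39 ± 0.163, adjusted p = 0.00025). LOC_Os01g62290 and HSFA1 were lower by 0.39 and 0.29, with calls lost in 4 and 5 of 6 omissions. Leaving out any 1 of the 3 WT high Pi root libraries or low Pi replicate 3, which share the fit, left 1 member lower. In those fits 629 to 666 of 22090 genes were lower.

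Whether an effect differed between tissues was tested over all 24 libraries. Root and shoot libraries were treated as independent. A pairing of those with the same number, such as shared seedlings, was not modelled or tested. The low Pi effect differed for 22 of 56 members (39.3%), beside 37.9% of all genes tested. The effect was higher in roots for 10 of these and lower for 12. Under TPM scaling the counts were 4 and 13 of 59, beside 2595 and 5263 of 24744 genes. That scaling moved the median of all genes by -0.11. The low Pi effect was lower in roots than in shoots for HSFA4D (difference of effects -3.34 ± 0.238, adjusted p = 5.2e-09). Its root levels were 0.786 to 1.30 FPKM at low Pi and 1.13 to 1.26 FPKM at high Pi. The same held for LOC_Os06g10990 (-2.69 ± 0.213), HSFB1 (-2.13 ± 0.241), HSFC2A (-1.88 ± 0.232) and LOC_Os05g38530 (-1.12 ± 0.263), with adjusted p between 1.9e-08 and 0.0025. The difference for LOC_Os06g10990 was -4.75 with a pseudocount of 0.1. That gene passed the filter over 24 libraries only through low Pi shoots. The bHLH6-OV effect differed for 25 of 56 members (44.6%), beside 29.4% of all genes tested. The effect was higher in roots for 12 of these and lower for 13. Under TPM scaling the counts were 3 and 18 of 59, beside 1892 and 4421 of 24744 genes. That scaling moved the median of all genes by -0.147. Without WT root replicate 3 the count of members was 16, where the effect was higher in roots for 2768 genes and lower for 2640 of 22980. Without bHLH6-OV shoot replicate 1 it was 13, beside 2727 and 2769 of 22980 genes. The members' share was then close to that of all genes. HSFB1 had the largest difference (-3.28 ± 0.241, adjusted p = 1.2e-08), with 29.9, 22.8 and 20.1 FPKM in bHLH6-OV roots and 29.92, 25.76 and 26.21 FPKM in WT roots. HSFC2A (-1.90 ± 0.232), HSFA4D (-1.04 ± 0.238) and LOC_Os01g62290 (-1.01 ± 0.204) followed, and the effect on LOC_Os05g01530 was higher in roots (1.24 ± 0.380, adjusted p = 0.020). HSFC2A stood at 1.24 ± 0.0850 FPKM in bHLH6-OV shoots and 0.233 ± 0.0730 FPKM in WT shoots (SD, n = 3 each), under the filter of the shoot fit. Its difference was -3.16 with a pseudocount of 0.1. That for LOC_Os05g01530 lost its call without bHLH6-OV root replicate 1 or 2 or bHLH6-OV shoot replicate 1. The spx4 effect differed for 1 of 56 members, HSFB1 (-1.60 ± 0.241, adjusted p = 0.00043), beside 1.83% of all genes tested.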

How the data were processed

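The deposited table holds FPKM per gene and library, made by the authors; the submitters' processing notes name HISAT2, StringTie, featureCounts 1.5.0-p3 and DESeq2. The genome build, strand setting and treatment of reads with several matches are not given in the sources used here. Each FPKM times gene length was a whole multiple of 1 read (100% of values, tolerance 0.01), which gave the assigned reads. The factor between FPKM and reads differed between tissues and between groups of shoots, so TPM scaling was tried. As a divisor relative to assigned reads it was 0.894 to 1.039 in bHLH6-OV shoots and 0.733 to 0.775 in spx4 shoots. In WT shoots it was 0.816 to 0.986 at low Pi and 0.773 to 0.844 at high Pi.

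Genes with a mean of at least 1 FPKM were tested on log2(FPKM + 1) with limma 3.58.1 in R 4.3.3 (empirical Bayes with trend and robust options, Benjamini-Hochberg adjustment). The 12 libraries of a tissue were fitted together (22090 genes in roots, 19990 in shoots), and the 24 libraries for differences between tissues (22980 genes). The fit of 24 libraries held no pairing of roots with shoots, and the replicate block was set within each tissue. The fit was tested on simulated data. Fold changes on this scale understate those of low genes.

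Alternatives were a pseudocount of 0.1, no filter, TPM scaling, no trend, only the 2 groups compared, a replicate block and leaving out each library. Leaving out libraries of groups outside the comparison was added after seeing the data. Members, lists and tests were chosen with earlier results of these data known. Named members were the called ones with groups apart and at least 5 FPKM in 1 group, up to 10 in each direction, the 3 most abundant of each role and the 5 largest differences between tissues. Other members named for their values were chosen after those values were seen. Symbols came from RefSeq (assembly ASM3414082v1), whose genes were paired with the deposited loci by chromosome, local shift of neighbouring genes and overlap; 71 of 79 members matched, and 26 had a symbol.

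Same-numbered libraries deviated together most in spx4 against bHLH6-OV in roots (r of 0.227, 0.291 and 0.477). Smaller positive r were found in bHLH6-OV against WT, at 0.154, 0.158 and 0.0750 in roots and 0.0862, 0.163 and 0.210 in shoots. In spx4 against WT they ran from 0.0201 to 0.123, and the remaining comparisons held negative r as well. With the replicate block 1 member was higher and 2 lower in spx4 against bHLH6-OV roots, HSFA1 losing its call. The block gave 7 rises and 4 falls in bHLH6-OV roots, and 11 and 4 in bHLH6-OV shoots. The labels do not say that the numbers mark a shared batch.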

Additional observations from a re-analysis of the deposited data

Results flagged for a closer look

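These results are given because an effect in roots differed from that in shoots in a limma test of the difference itself, adjusted over 22980 genes. That test treated root and shoot libraries as independent. Values are the effect in roots minus that in shoots on the log2 scale.

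The bHLH6-OV effect differed for 25 of 56 members (44.6%), beside 29.4% of all genes tested. It differed for 16 members without WT root replicate 3 and for 13 without bHLH6-OV shoot replicate 1. In the last fit the effect was higher in roots for 2727 genes and lower for 2769 of 22980, so the members were then near the level of all genes. HSFB1 (-3.28), HSFC2A (-1.9), HSFA4D (-1.04) and LOC_Os01g62290 (-1.01) had the lower effect in roots, and LOC_Os05g01530 (1.24) the higher. The photosynthesis list, which moved with LOC_Os05g01530, summed to 360 to 470 FPKM in bHLH6-OV roots and 134 to 169 FPKM in WT roots, against 18096 to 29451 FPKM in bHLH6-OV shoots and 31285 to 39342 FPKM in WT shoots. Its part in the result was not tested.

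The spx4 effect differed for 1 of 56 members (1.79%), HSFB1 (-1.6), beside 1.83% of all genes tested, so the count is at the level of all genes.

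The low Pi effect differed for 22 of 56 members (39.3%), beside 37.9% of all genes tested, so this count too is near the level of all genes. HSFA4D (-3.34), LOC_Os06g10990 (-2.69), HSFB1 (-2.13), HSFC2A (-1.88) and LOC_Os05g38530 (-1.12) had the lower effect in roots. LOC_Os06g10990 passed the filter only through low Pi shoots.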

How the results depend on the processing

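Of 1255 repeats of 63 named results under alternatives, 1136 kept direction and call, 119 kept the direction and lost the call, and 0 reversed. Results named within a tissue were picked as called with groups apart, so leaving out a library could not reverse them. Fits without trend, of only the 2 groups or with the block keep the change itself within a tissue. The lack of reversals was thus largely fixed in advance. The other values are counts of members called. With the replicate block, bHLH6-OV roots had 4 falls (2 without it); except for HSFA1 in spx4 against bHLH6-OV roots and LOC_Os11g47760, HSP81-1, LOC_Os12g32986, LOC_Os02g48110, LOC_Os03g25120, HSFC1A, HSFB2C, HSFA2C, LOC_Os08g38086 and LOC_Os09g29840, no call on a member named in the report ended with it within a tissue. Without the filter spx4 roots had 0 falls and low Pi roots 5 rises. With only the 2 groups compared, falls were 0 in spx4 roots, 1 in spx4 against bHLH6-OV roots and 10 in bHLH6-OV shoots, and spx4 shoots had 2 rises. TPM scaling gave 19 rises and 2 falls in bHLH6-OV shoots, 12 falls in low Pi shoots, and 2 higher and 25 lower in spx4 against bHLH6-OV shoots. The cause was not tested.

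Each library of the fit was left out in turn, those of the groups outside a comparison being an alternative chosen after seeing the data. Rises and falls ran between 3 and 8 and between 1 and 3 in bHLH6-OV roots, and between 2 and 5 and between 4 and 9 in low Pi roots (4 to 7 without a library of the groups compared). Falls ran between 0 and 1 in spx4 roots and in spx4 shoots, between 1 and 3 in spx4 against bHLH6-OV roots, between 3 and 11 in bHLH6-OV shoots and between 7 and 15 in spx4 against bHLH6-OV shoots, where 3 to 9 were higher. Rises ran between 1 and 2 in spx4 shoots. The bHLH6-OV difference between tissues ran between 13 and 28 members. WT low Pi shoot replicate 1 gave the upper end in each of these shoot counts and in the difference between tissues. Without a library of the groups compared the upper ends were 5 and 12 falls, 6 higher and 22 members. Such fits test fewer libraries. Counts over all genes moved in them too. Rises ran between 900 and 1951 in bHLH6-OV roots and falls between 2371 and 4382 in bHLH6-OV shoots. In spx4 against bHLH6-OV shoots 1938 to 3307 genes were lower.

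Over all genes, the main and other counts were 140 and 238 rises in spx4 roots without the filter, and 145 and 224 in spx4 shoots. In spx4 against bHLH6-OV roots, 690 and 355 genes were higher with 2 groups and 764 and 1298 lower without the filter. With 2 groups 347 genes rose in spx4 shoots and 4636 fell in bHLH6-OV shoots (3465 in the main fit). Without WT low Pi shoot replicate 1, 466 rose and 526 fell there (145 and 283 with it), and the spx4 difference between tissues took in 744 genes (420), so these shares of all genes depend on that library. TPM scaling gave 4623 rises and 1491 falls in bHLH6-OV shoots (2801 and 3465), and 1106 higher and 6536 lower in spx4 against bHLH6-OV shoots (3652 and 2751). With 3 libraries a group, members near 1 FPKM are measured by few reads.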

Other observations

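Of 5 calreticulins and calnexins tested, chaperones of glycoproteins in the endoplasmic reticulum, 4 rose beside BIP1 in low Pi shoots and 1 fell, where 22.2% of all genes rose and 26% fell. LOC_Os07g14270 stood at 253, 165 and 159 FPKM in low Pi shoots, against 86.3, 86.4 and 82.7 FPKM in high Pi shoots (change 1.13 ± 0.207, limma adjusted p = 0.0010). LOC_Os01g67054 stood at 314, 286 and 254 FPKM in low Pi shoots, against 158, 152 and 163 FPKM in high Pi shoots (change 0.84 ± 0.103, adjusted p = 6.4e-05). LOC_Os03g59264 fell to 6.56, 9.78 and 10.7 FPKM in low Pi shoots, against 19.5, 19.7 and 20.0 FPKM in high Pi shoots. In bHLH6-OV shoots 2 of the 5 rose and 1 fell (14% and 17.3% of all genes), and in bHLH6-OV roots 1 of 6 fell (10.4% of all genes).

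Small heat shock proteins, taken by RefSeq symbol after the data were seen, gave 22 genes outside the 79. In low Pi roots 2 of 12 tested rose and 5 fell, beside 15.3% and 16.1% of all genes. In bHLH6-OV shoots 6 of 14 rose and 2 fell, beside 14% and 17.3% of all genes. Of those rising, HSP18.1 and HSP16.9B passed the filter only through bHLH6-OV shoots, so their entry into the test depended on their rise. They averaged 2.59 and 2.50 FPKM in bHLH6-OV shoots, against 0.339 and 0.260 FPKM in WT shoots at high Pi. HSP23.2 fell to 1.51, 3.02 and 2.36 FPKM in low Pi roots, against 19.04, 17.24 and 21.12 FPKM in high Pi roots (change -2.63 ± 0.218, adjusted p = 7.4e-06). HSP17.4 stood at 38.1, 16.4 and 16.2 FPKM in bHLH6-OV shoots, against 2.48, 3.44 and 2.59 FPKM in WT shoots (change 2.58 ± 0.313, adjusted p = 0.00014). In low Pi shoots 1 of 14 rose and 4 fell (22.2% and 26% of all genes), and in bHLH6-OV roots 3 of 12 fell (10.4%). In spx4 roots and shoots 1 fell each (1.82% and 1.42%). HSP16.0 fell in all 3 shoot comparisons with WT, which share their WT libraries, at 14.5 to 16.3 FPKM in bHLH6-OV, 17.5 to 25.04 FPKM in spx4 and 7.93 to 8.61 FPKM at low Pi, against 35.2 to 37.0 FPKM in WT at high Pi. CLPB1, the Hsp100 disaggregase, which like HSP16.0 was named after its values were seen, was under the filter. It stood at 3.88, 1.89 and 2.34 FPKM in low Pi shoots, against 0.214, 0.231 and 0.255 FPKM in high Pi shoots, and at 0.940, 1.116 and 0.926 FPKM in low Pi roots, against 0.0517, 0.102 and 0.0345 FPKM in high Pi roots.

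Other folding genes, listed by words in their descriptions, gave these counts, to be read against the shares of all genes. In low Pi shoots, where 22.2% of all genes rose and 26% fell, chaperonins, the barrel-shaped folding chambers, had 1 rise and 10 falls of 26 with a median change of -0.295, beside -0.052 for all genes. There Clp-type ATPases had 0 rises and 3 falls of 3, J-domain proteins 4 and 6 of 19, nucleotide exchange factors and co-chaperones 3 and 2 of 9, peptidyl-prolyl isomerases 2 and 7 of 28 and universal stress proteins 5 and 5 of 16. In low Pi roots universal stress proteins had 3 rises and 9 falls of 24, beside 15.3% and 16.1% of all genes. In bHLH6-OV shoots peptidyl-prolyl isomerases and universal stress proteins each had 6 rises and 3 falls, of 28 and 16, beside 14% and 17.3% of all genes. In bHLH6-OV roots nucleotide exchange factors and co-chaperones had 1 rise and 4 falls of 10, beside 7.62% and 10.4% of all genes.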
